A study of Mus musculus with 4 samples.

Results

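The cells described here expressed Mgl2, a galactose-type C-type lectin of myeloid cells, and Ccr2, the receptor for the monocyte chemoattractant Ccl2. They also expressed the MHC class II gene H2-Ab1, with no captured transcript of Flt3 or Ly6c2 and no more than traces of C1q. They were selected on single-cell UMI counts (unique molecular identifiers, each standing for 1 captured transcript) from ascites of tumour-bearing mice. Of the 26321 cells deposited for the BTYNB and combination libraries, 320 met the limits, 205 in BTYNB and 115 in combination. Because the combination matrix held no cell under 5115 UMIs, the libraries were compared above that number, which left 140 BTYNB cells and 115 combination cells (255 together). The 4 libraries of the series held 46342 cells.

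The ascites came from female C57BL/6 mice injected intraperitoneally with ID8-Trp53-/- cells, a mouse ovarian surface epithelial line with a Trp53 knockout, which were left to engraft for 7 days. Control mice then received DMSO and an IgG control antibody, BTYNB mice received BTYNB and the IgG control antibody, anti-PD-1 mice received DMSO and a PD1 blocking antibody (clone RMP1-14), and combination mice received both BTYNB and the blocking antibody, until about 3 mL of ascites had formed. BTYNB, an inhibitor of the RNA-binding protein Igf2bp1, was given at 50 mg/kg and the antibodies at 100 ng a dose per the labels, from which the study's methods differ. All groups carried the same Trp53 knockout tumour, the mice themselves were not knockouts, and ascites cells of the animals of 1 treatment were pooled, depleted of erythrocytes and frozen before capture.

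Each treatment was therefore 1 library, and the differences below are between single pooled libraries without a replicate check. No test was made. Levels are given as CPM (UMIs of the summed cells scaled to a total of 1000000) and differences as log2 ratios of CPM with 1 CPM added to each side. The 95% intervals in parentheses (exact Poisson for counts, exact binomial for shares) cover counting error only. They leave out the spread between cells and are too narrow for genes that few cells carry. A gene was counted as higher or lower when its difference was at least 2-fold and the interval excluded 0.

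Antigen-presenting myeloid cells take up material, cut it in lysosomes and load the peptides on MHC class II molecules, which CD4 T cells read. The invariant chain Cd74 occupies the class II groove until H2-DM exchanges it for peptide, and H2-O holds H2-DM back. Blood monocytes enter inflamed tissue through Ccr2, lose Ly6c and can take on class II and lectins such as Mgl2, so that they come to resemble Flt3-dependent type 2 dendritic cells, which express many of the same genes.

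The class II genes lie in 1 region of chromosome 17 and are switched on through a shared promoter module that ends in a Y box. The sequences below, from RefSeq on GRCm38.p6, are shown because a class II gene was part of the rule and the class II list is described below. They are the coding strand, 5' to 3', with the Y-box letters TGATTGG in capitals. The count files were built on GRCm39, and nothing was read from the files by these coordinates.
H2-Aa: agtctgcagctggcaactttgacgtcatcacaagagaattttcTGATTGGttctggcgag
H2-Eb1: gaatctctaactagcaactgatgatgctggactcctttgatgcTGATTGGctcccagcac
H2-DMb1: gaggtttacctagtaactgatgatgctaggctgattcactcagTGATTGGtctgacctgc
H2-Oa: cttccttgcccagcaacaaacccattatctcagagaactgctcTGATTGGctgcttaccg

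The H2-Aa stretch lies on the minus strand at chr17:34287857-34287916, with the motif starting 50 bases before the annotated start of the gene. The others are on the plus strand, H2-Eb1 at chr17:34305763-34305822 with the motif 61 bases before the start, H2-DMb1 at chr17:34153085-34153144 with 63 bases, and H2-Oa at chr17:34092291-34092350 with 45 bases. Of 10 genes of the class II list looked up, all but Cd74, 8 matched the promoter table. H2-Ab1, the class II gene of the rule, and the coactivator gene Ciita had no window in it. Of the 8, 7 held TGATTGG on the coding strand (7 of 9 windows of 300 bases). H2-DMa had no match in its windows. Searched on both strands, the letters occurred in 2568 of 32851 windows, or 7.82% of all promoters in the table. A match describes the sequence only.

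The limit on H2-Ab1 lay far below the values of the cells, and the limits on C1q, Mgl2, Flt3 and Ccr2 removed many cells that passed every other limit. Among the 140 BTYNB cells H2-Ab1 ranged from 39 UMIs through a median of 102 to 231, and among the 115 combination cells from 29 through 84 to 197, against a limit of 10. Mgl2 had a median of 11 UMIs in both libraries, and 9 BTYNB and 6 combination cells entered with 1 UMI. Ccr2 had a median of 8 in both, with 12 and 11 cells at 1 UMI. On the C1q limit alone, 215 BTYNB and 164 combination cells failed, with medians of 37 and 29.5 C1q UMIs, while 2 and 7 cells stood on the last allowed value of 4 and 6 and 9 cells on 5. The Mgl2 limit alone removed 96 and 72 cells and the Ccr2 limit alone 48 and 27, all at 0 UMIs. The Flt3 limit alone removed 80 and 41 cells, of which 29 and 16 had 1 Flt3 UMI. Flt3 was sparse even in the Cd209a dendritic cells defined below, which had to have it (215 CPM in BTYNB and 237 in combination). A count of 0 therefore does not show that a cell lacked Flt3, and the limit cannot fully separate such dendritic cells. These values chose the cells and are given as a description.

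The label was checked against the marker genes that the rule did not use. The fourth gene of the label's list, Ifi30, a lysosomal thiol reductase of antigen processing, had 1944 CPM in the BTYNB cells and 1629 in the combination cells, between the Ly6c2 monocytes (1286 and 1546) and the Cd209a dendritic cells (2206 and 2036) defined below. Of the macrophage markers outside the rule, Adgre1, which encodes F4/80, was at 17.6 and 31.0 CPM, Mertk, an efferocytosis receptor, at 8.82 and 11.9 CPM, and Apoe at 11.5 and 5.95 CPM. The macrophage markers Cd68, a lysosomal glycoprotein, at 470 and 512 CPM, and Fcgr1, a high-affinity Fc receptor, at 82.0 and 50.0 CPM, were more abundant. In the C1q macrophages defined below Cd68 was at 705 and 772 CPM, and in the dendritic gate at 352 and 327. Chil3, a chitinase-like gene of classical monocytes, had 0 UMIs in either library, which allows up to 2.64 and 3.57 CPM. Ly6c2 was at 0 by the rule.

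For comparison, 3 neighbouring gates were set with the same lineage limits and the same UMI floor. Ly6c2 monocytes (at least 2 Ly6c2 UMIs and 1 Ccr2 UMI) numbered 126 and 27 cells, C1q macrophages (at least 10 C1q UMIs, 1 Csf1r UMI and no Ly6c2) 364 and 483, and Cd209a dendritic cells (at least 1 Flt3, 1 Cd209a and 10 H2-Ab1 UMIs, no Xcr1 or Clec9a) 90 and 46, each in BTYNB and combination order. The marker lists were summed without the genes on which any gate was set. The 6 remaining type 2 dendritic markers summed to 1173 and 844 CPM in the Mgl2 Ccr2 class II cells, against 1614 and 1460 in the dendritic gate, 343 and 441 in the Ly6c2 gate and 279 and 165 in the C1q gate. The 6 remaining macrophage markers summed to 612 and 646 CPM against 4690 and 5248 in the C1q gate, 1610 and 1380 in the Ly6c2 gate and 423 and 383 in the dendritic gate. The 7 remaining monocyte markers summed to 1581 and 925 CPM, against 5805 and 3791 in the Ly6c2 gate, 1654 and 1110 in the dendritic gate and 1544 and 2780 in the C1q gate. Irf4, a transcription factor of type 2 dendritic cells, was at 45.0 and 48.8 CPM beside 46.2 and 40.0 CPM in the dendritic gate. The other type 2 dendritic markers of that sum were lower than in the dendritic gate in both libraries. Among them were Kmo (237 and 152 against 396 and 397 CPM) and Dpp4 (239 and 173 against 323 and 393). Csf1r, the receptor for macrophage colony-stimulating factor, lay between the gates, at 194 and 133 CPM against 558 and 523 CPM in C1q macrophages, which had to have it, and 56.3 and 59.99 CPM in the dendritic gate. None of these sums is a measure of origin, and the cells are called here by the genes of the rule. The Ly6c2 gate held markers of other cells: neutrophil markers summed to 2417 CPM in BTYNB, with S100a8 at 1314 and S100a9 at 1037, and to 22.9 CPM in combination, and NK markers to 142 and 5.73 CPM. Their part in the values of that gate given below was not tested.

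**Figure D1:**
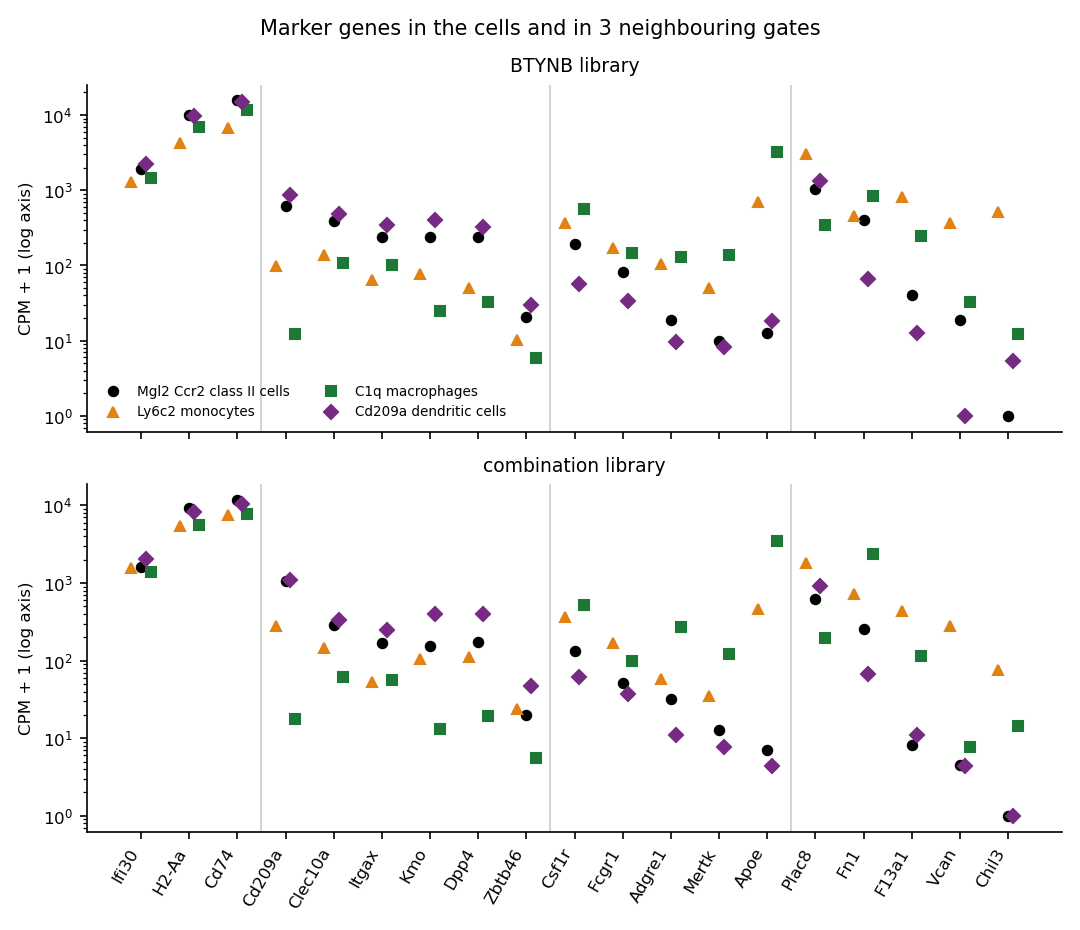
CPM + 1 on a log axis for 19 marker genes in the Mgl2 Ccr2 class II cells (black circles), Ly6c2 monocytes (triangles), C1q macrophages (squares) and Cd209a dendritic cells (diamonds), in the BTYNB library (top) and the combination library (bottom), 1 point per library and gate. Adgre1, Mertk and Apoe of the black circles lie far below the squares (Apoe 11.5 against 3227 CPM in BTYNB). The dendritic cell genes Cd209a, Itgax and Clec10a lie near the diamonds, for which a Cd209a UMI was required.

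Markers of other lineages held few of the UMIs. The sums here are over all genes of each list, with the Cd3, Cd79 and keratin genes that the rule capped. Without the capped genes, T cell markers summed to 7.05 and 7.14 CPM, B cell markers to 56.4 and 47.6 and tumour markers to 54.7 and 123. Summed T cell markers stood at 9.70 and 9.52 CPM, B cell markers at 60.8 and 51.2, NK markers at 0 and 1.19, mast cell or basophil markers at 0.882 and 1.19, neutrophil markers at 18.5 and 4.76, mature dendritic markers at 38.8 and 38.1, and those of resident large peritoneal macrophages at 55.5 and 81.0 CPM. Tumour markers summed to 78.5 CPM in BTYNB and 180 in combination, against 3200 and 3165 CPM in keratin-rich cells (at least 10 keratin UMIs and no Ptprc). The keratins in these sums were fixed in part by both selections. Globins summed to 22.9 and 118 CPM, and 85 of the 99 globin UMIs of combination came from 1 cell. Type 1 dendritic markers summed to 145 and 275 CPM: 8 BTYNB and 13 combination cells had a UMI of Xcr1 or Clec9a, and the highest combination cell had 29 of them. No cell barcode of the selected cells was shared between libraries, against 0 to 4 shared barcodes among all cells.

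The cells made up a larger share of the BTYNB library than of the combination library. They were 140 of 5617 cells at the floor in BTYNB (2.49%, 2.10 to 2.93) and 115 of 7074 in combination (1.63%, 1.34 to 1.95), a log2 ratio of -0.62 (-0.99 to -0.25). In control they were 11 of 7383 cells (0.149%, 0.0744 to 0.266). In anti-PD-1 there were 0 of 9276 cells, which allows up to 0.0323%, and 8 cells under the floor. Against cells with a UMI of Ptprc, the leukocyte gene Cd45, BTYNB and combination were nearer to each other, with 136 of 2645 cells in BTYNB (5.14%, 4.33 to 6.05) and 113 of 2548 in combination (4.43%, 3.67 to 5.31), and the interval of that ratio included 0 (-0.21, -0.59 to 0.16). Control had 11 of 453 Ptprc cells (2.43%, 1.22 to 4.30) and anti-PD-1 0 of 388. The share among all cells has the tumour cells of each library in its denominator, and their part in these differences was not tested.

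Depth was slightly higher in BTYNB, at medians of 7924 UMIs and 2682.5 genes per cell against 6885 and 2545 in combination, with mitochondrial shares of 5.22% and 5.34%. Summed, the cells gave 1134419 and 839963 UMIs. The genes that held the most UMIs in both libraries were cytoskeletal and class II genes: Tmsb4x (22494 and 26879 CPM), Actb (16678 and 18223), H2-Ab1, Cd74, Actg1, H2-Aa and H2-Eb1, followed by Eef1a1, the lysosomal saposin precursor Psap (5516 and 6934 CPM), Ptma, Cfl1, Cst3, Tpt1, Ctss, B2m, Zfp36, Cd52, Fth1, Pim1 and H2-D1.

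Against Ly6c2 monocytes of the same library, Ear2, Rgs1 and Pltp were higher in the cells and F13a1, Vcan and Maf were lower. Genes on which any of the gates was set were left out. Of 3258 genes tested, 64 were at least 2-fold higher in both libraries (1.96%) and 30 were lower in both (0.921%). Ear2, an eosinophil-associated ribonuclease, was at 554 and 593 CPM against 12.4 and 34.4 CPM in the monocytes. Rgs1, a regulator of G protein signalling, was at 1439 and 1391 CPM against 183 and 206, and Pltp, the phospholipid transfer protein, at 714 and 945 against 125 and 160. Fcrls, an Fc receptor-like scavenger gene, was at 45.8 and 108 CPM against 3.11 and 0, and the lectin Clec4b1 at 77.6 and 110 against 8.30 and 0. F13a1, the A chain of coagulation factor XIII and a classical monocyte gene, was at 39.7 and 7.14 CPM against 810 and 429 in the monocytes, the proteoglycan Vcan at 17.6 and 3.57 against 364 and 275, and the transcription factor Maf at 20.3 and 22.6 against 256 and 326. Other monocyte markers were present in the cells: Plac8 was at 1027 and 617 CPM against 2999 and 1798 in the monocytes, and Fn1, which encodes fibronectin, at 401 and 255 against 450 and 722. Also among the 8 leading genes were Klrb1b, Slamf9 and Tnip3 on the higher side, and Apoe, the scavenger receptor Msr1, the unnamed gene ENSMUSG00000120878, Thbs1 and the glutathione reductase Gsr on the lower side.

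Against C1q macrophages, of 7382 genes 171 were at least 2-fold higher in the Mgl2 Ccr2 class II cells in both libraries (2.32%) and 350 lower (4.74%). Apoe, the lipoprotein of macrophages, differed by -8.02 in BTYNB (-9.05 to -7.36) and -8.98 in combination (-10.8 to -7.98). Arg1, the arginase of alternatively activated macrophages, was at 22.04 and 2.38 CPM against 1187 and 1704, and the complement receptor C5ar1 at 6.17 and 4.76 against 286 and 300. Itga9 and the growth factor Igf1 had 0 UMIs in the Mgl2 Ccr2 class II cells of both libraries, and Fcna, the chemokine Pf4 and Cbr2 had at most 0.882 CPM. On the higher side stood Septin3, at 176 and 165 CPM against 3.01 and 1.33, the NK-type lectin Klrd1 at 154 and 84.5 against 4.52 and 6.36, Kmo, the kynurenine 3-monooxygenase, at 237 and 152 against 23.5 and 12.2, and the transcription factor Bcl11a at 41.4 and 53.6 against 2.41 and 5.57. The fatty acid receptor Ffar2, Ctnnd2, Ifitm1 and P2ry10 completed the 8. These levels are averages over unlike cells, and Klrd1 was near the macrophage level in the Lyz2-high cells described below.

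The gates differ in cell number, which sets how many genes can be counted, so the counts do not rank them. Against Cd209a dendritic cells, of 3604 genes 72 were at least 2-fold higher than in the dendritic gate in both libraries (2%) and 25 lower (0.694%). Lyz2, a lysozyme of monocytes and macrophages, was at 2060 and 3645 CPM against 62.1 and 59.99 CPM, and Fcrls was at 0 UMIs in the dendritic gate of both libraries. The chemokine Ccl9 was at 869 and 876 CPM against 93.8 and 86.7, Ear2 at 554 and 593 against 60.6 and 70.0, and Pla2g7, the secreted phospholipase that degrades platelet-activating factor, at 79.3 and 94.1 against 7.22 and 3.33. Klra2, Ms4a8a and Dok2 were the others of the 8. Pla2g7 was near the dendritic level in the Lyz2-low cells described below. Lower than in the dendritic gate were Plet1 (22.9 and 20.2 against 176 and 117 CPM), Cd7 (36.1 and 31.0 against 147 and 203), Tbc1d4, Gpr183, a receptor that positions dendritic cells by oxysterols, Prkcb, Cdh1, Klrd1 and Ffar2. Reads can be split between Lyz2 and its close copy Lyz1, so the 2 are uncertain between themselves.

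The cells were not uniform, and of 1472 genes Lyz2 varied most among them. After thinning each cell to 5000 UMIs, the Fano factor (variance over mean across cells) of Lyz2 was 30.5 in BTYNB and 51.3 in combination, against medians of 1.27 and 1.25 over those genes. The next genes were Cst3 (15.6 and 28.4), the neutrophil chemokine Cxcl2 (13.8 and 12.7), Tmsb4x, Ptma, the chemokine Ccl6 (10.4 and 9.89), Lpl (18.8 and 9.11), Ccl7, Psap, Cd209a (7.94 and 8.60), Rgs1, Ccl2, Egr1, Il1b (10.2 and 6.94) and Actb. Lyz2 went with Ccl6 (Spearman's rho 0.746 over 140 BTYNB cells and 0.769 over 115 combination cells) and with Psap (0.625 and 0.624), and against Cst3 (-0.415 and -0.516). These correlations describe cells that share a library and a thinned depth.

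Lyz2 UMIs per thinned cell ranged from 0 through a median of 1 to 89 in BTYNB and from 0 through 3 to 160 in combination. Limits set after these values were seen divided the cells into Lyz2-low cells with 0 to 2 UMIs, Lyz2-high cells with at least 10, and those between. In BTYNB 84 of 140 cells were Lyz2-low (60%, 51.4 to 68.2), 32 Lyz2-high (22.9%, 16.2 to 30.7) and 24 between. In combination 46 of 115 were Lyz2-low (40.0%, 31.0 to 49.5), 32 Lyz2-high (27.8%, 19.9 to 37.0) and 37 between. By the same limits 97.8% and 100% of the Cd209a dendritic cells were low, while 85.2% and 90.9% of the C1q macrophages and 69.0% and 70.4% of the Ly6c2 monocytes were high. The selected cells thus spanned the levels of the dendritic gate and those of the monocyte and macrophage gates.

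**Figure D2:**
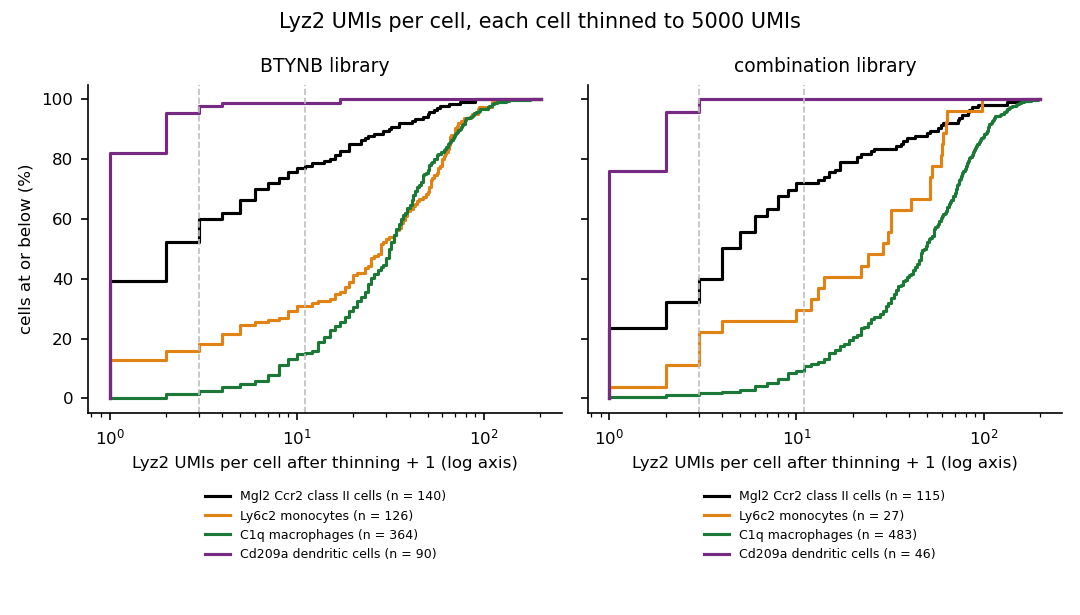
Cumulative share of cells (%) against Lyz2 UMIs + 1 per cell (log axis) after thinning to 5000 UMIs, for the Mgl2 Ccr2 class II cells (black) and the neighbouring gates, BTYNB left and combination right, with dashed lines at the limits of 2 and 10 UMIs. The black line runs between that of the Cd209a dendritic cells, which is near 100% at 2 UMIs, and those of the C1q macrophages and Ly6c2 monocytes, and reaches 60% at 2 UMIs in BTYNB and 40.0% in combination.

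Both classes held Mgl2 and the abundant class II chains, of which Mgl2 and H2-Ab1 were required by the rule. Mgl2 was at 1752 CPM in low and 1832 in high cells of BTYNB and at 1487 and 2021 CPM in combination. H2-Aa was at 10292 and 8611 CPM in BTYNB and 8959 and 9148 in combination. Among the less abundant class II genes, H2-DMa and H2-DMb1 were similar in both classes and others were lower in the high cells: Ciita was at 395 and 186 CPM in BTYNB and 390 and 170 in combination, H2-DMb2 at 708 and 444 and at 705 and 393, H2-Ob at 137 and 44.0 and at 90.1 and 32.5, and H2-Oa at 77.8 and 13.5 and at 61.2 and 3.61. Ccr2 had medians of 5 UMIs in low and 16 in high cells of BTYNB and 4 and 15.5 in combination, and high cells were also deeper, with medians of 9288.5 against 7502.5 UMIs in BTYNB and 7992.5 against 6406.5 in combination. At least 1 C1q UMI was seen in 17.9% of low and 56.3% of high cells in BTYNB and in 17.4% and 50.0% in combination, all of them within the C1q limit of the rule.

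Of 1987 genes tested between the classes, 57 were at least 2-fold higher in Lyz2-high cells in both libraries and 41 lower, which is a description since Lyz2 of the same cells formed the classes. The phospholipase Pla2g7 was at 4.67 CPM in low and 244 in high cells of BTYNB and at 3.22 and 242 in combination. Fibronectin, Fn1, was at 42.0 and 1073 in BTYNB and at 32.2 and 650 in combination, in the same order. The lipoprotein lipase Lpl was at 18.7 and 562, and at 116 and 675 CPM. The chemokine Ccl6 was at 692 and 4107, and at 789 and 4280 CPM, Ccl9 at 345 and 1656, and at 267 and 1635, and the endotoxin co-receptor Cd14 at 140 and 599, and at 132 and 516. Chemokines did not all go this way: Cxcl16 was at 94.9 and 20.3 CPM, and at 67.6 and 7.22, and Ccl17 at 54.4 and 16.9, and at 61.2 and 0. The myeloid transcription factor Cebpb was at 123 and 586, and at 83.7 and 552 CPM. Among the genes lower in Lyz2-high cells, Klrd1 was at 260 in low and 6.77 in high cells of BTYNB and 180 and 3.61 CPM in combination, and Kmo was at 364 and 44.0, and at 277 and 57.7. The integrin Itgax, which encodes CD11c, was at 328 and 102, and at 261 and 93.8 CPM. The decoy receptor Il1r2 was at 885 and 237, and at 476 and 68.6 CPM. Zbtb46, a factor of conventional dendritic cells, was at 31.1 and 3.39, and at 25.8 and 7.22 CPM, on too few UMIs to be tested (20 and 1, and 8 and 2). Irf4 was at 49.8 and 44.0, and at 32.2 and 68.6 CPM. Ear2, Fcrls, Ms4a8a, Ctsd, Klra2, Cd226, Capg, Hopx, Dok2, Plaur, Sirpb1c and Cd302 were among the other leading genes of the high class, and Actn1, Septin3, Ctnnd2, P2ry10, Ptger4, Slamf7, Vrk1, Sparc, Nasp, Pak1 and Dennd4a of the low class.

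**Figure D3:**
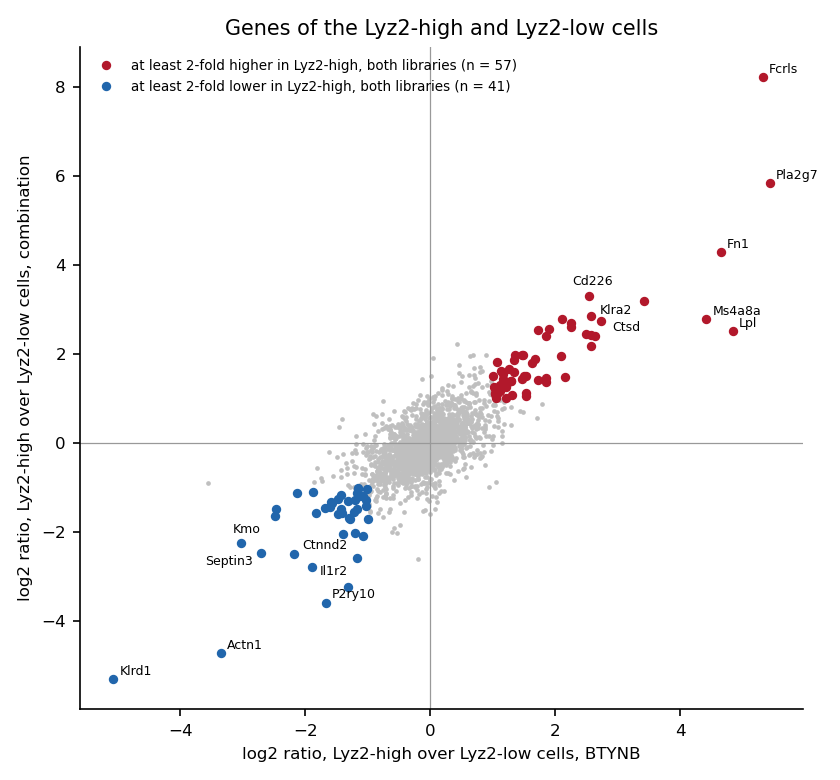
Log2 ratio of CPM (1 CPM added) of Lyz2-high over Lyz2-low cells in BTYNB (x axis) and combination (y axis) for 1987 genes, with the 57 genes higher and the 41 lower in both libraries in colour and leading genes named. Pla2g7, Fn1 and Lpl lie at the upper right and Klrd1 and Actn1 at the lower left, and Fcrls, with 0 UMIs in the combination Lyz2-low cells, sits where the added 1 CPM puts it.

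Between treatments, the levels of most genes in the cells were similar. Of 5070 genes with at least 50 UMIs over both libraries, 68 were at least 2-fold higher in combination than in BTYNB (1.34%) and 52 lower (1.03%), the median log2 ratio was -0.02, and the central 95% of genes lay between -0.80 and 0.80. Free RNA of tumour cells can add to such counts. Keratin UMIs summed to 23.8 CPM in BTYNB and 57.1 in combination, against 1575 and 1614 CPM in keratin-rich cells. The rule allowed at most 2 keratin UMIs a cell, so these sums do not size free tumour RNA. Wt1 or Upk3b, tumour genes outside the rule, had a UMI in 24 of 140 BTYNB and 61 of 115 combination cells. This pair was chosen after its values were seen. Of the 68 higher genes, 39 had a higher CPM in keratin-rich combination cells than in the Mgl2 Ccr2 class II cells of that library, and of the 52 lower genes 23. In BTYNB the numbers were 55 of 68 and 11 of 52, beside 44.1% in BTYNB and 43.6% in combination over all 5070 genes. The higher genes were picked for a low BTYNB level and the lower genes for a high one, which fixes the BTYNB numbers in part. The reverse holds for the combination numbers. The part of free RNA in these differences was not tested. Without the 8 and 13 cells with a UMI of Xcr1 or Clec9a, 61 genes were higher and 50 lower. The gene lists below are described by the number of tested members on each side of 0. Their median is given beside that of all genes, of which 48.3% lay above 0. The share of all genes with an interval that excludes 0 was not counted. Abundant genes have narrow intervals, so the counts of intervals per list are a description and cannot be set against a background.

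**Figure D4:**
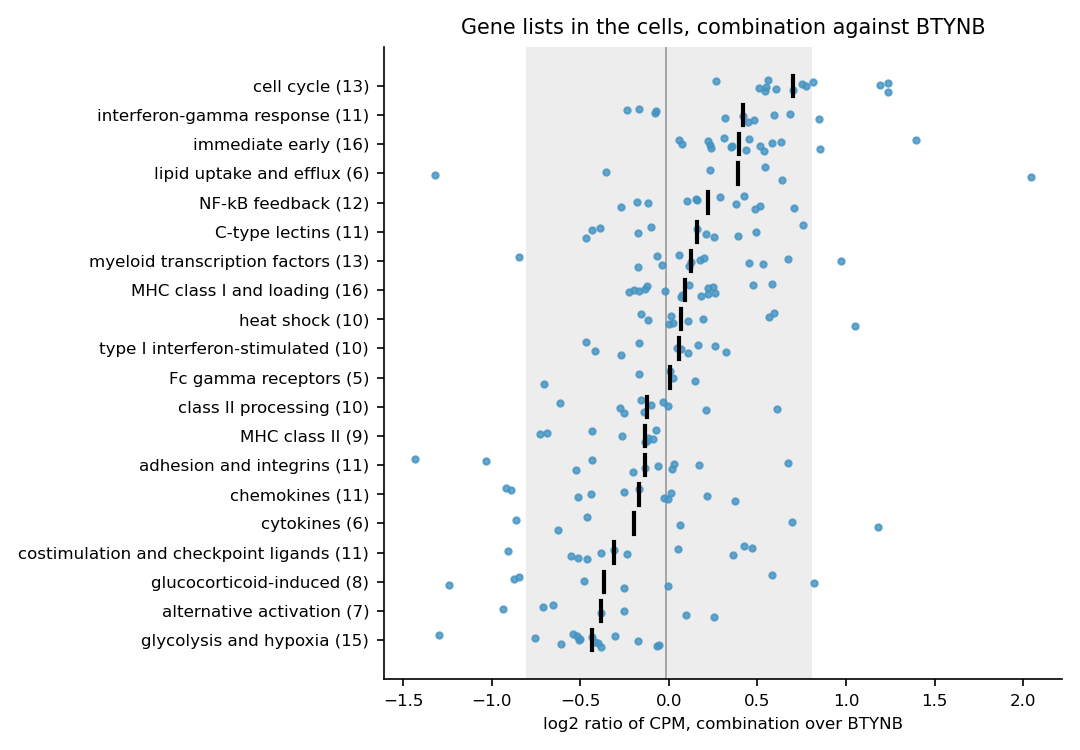
Log2 ratio of CPM, combination over BTYNB, of the genes of each list in the Mgl2 Ccr2 class II cells, with genes of the selection rule left out. Dots are genes, black bars list medians, the grey line the median of all genes (-0.02), the grey band their central 95% (-0.80 to 0.80), and brackets give the genes tested. Cell cycle (median 0.70) and immediate early genes (0.40) lie right of the grey line and glycolysis and hypoxia genes (-0.43) left of it.

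Class II genes stood slightly lower in combination. All 9 tested class II genes outside the rule were below 0, with a median of -0.13, 6 intervals below 0 and none at 2-fold. H2-Aa, an alpha chain, was at 10008 CPM in BTYNB and 9128 in combination (-0.13, -0.17 to -0.09), and H2-Eb1, a beta chain, at 8416 and 7718 (-0.12, -0.17 to -0.08). The largest abundant difference was that of Cd74, at 15726 and 11654 CPM (-0.43, -0.47 to -0.40). It was also lower in combination in the C1q macrophages (11505 and 7832 CPM) and the dendritic gate (14888 and 10565). The exchange factor genes H2-DMa (784 and 737), H2-DMb1 (519 and 479) and H2-DMb2 (619 and 515 CPM) differed less, while the inhibitory partners H2-Oa (53.8 and 32.1 CPM, -0.72, -1.45 to -0.07) and H2-Ob (102 and 63.1, -0.69, -1.19 to -0.22) differed more. Ciita, the coactivator that turns on the class II promoters shown above, was at 317 and 301 CPM (-0.08, -0.31 to 0.16). Lyz2-low cells, which held more H2-Oa and H2-Ob, were 60% of the BTYNB and 40.0% of the combination cells. In them H2-Oa was at 77.8 and 61.2 CPM and H2-Ob at 137 and 90.1. Lyz2-high cells had 4 and 1 H2-Oa UMIs and 13 and 9 H2-Ob UMIs. The part of this mix in the differences was not tested. Within Lyz2-low cells 0 of 9 class II genes were above 0 and within Lyz2-high cells 3 of 7. H2-Aa was at 8611 and 9148 CPM and H2-Eb1 at 6884 and 7427 in the high cells. In the same list the medians were -0.29 in C1q macrophages, -0.24 in the dendritic gate and 0.58 in Ly6c2 monocytes.

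Among 10 genes of class II processing, 2 were above 0 and 8 below (median -0.12). Ifi30 was lower in combination (-0.26, -0.35 to -0.16), as was cathepsin S, Ctss, which trims the invariant chain (4825 and 4379 CPM, -0.14, -0.20 to -0.08). The lysosomal proteases Ctsd (83.7 and 129 CPM, 0.61, 0.21 to 1.03) and Ctsb (717 and 829, 0.21, 0.06 to 0.36) were higher. The cathepsin inhibitor Cst3 was at 5085 and 4975 CPM, with an interval that included 0. Of 16 genes of MHC class I and its loading, 10 were above 0 (median 0.09). H2-Q7 was at 159 and 238 CPM (0.58, 0.29 to 0.88) and H2-D1 at 2860 and 3238 (0.18, 0.10 to 0.25), though near-identical class I genes can trade reads.

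Immediate early genes, which are transcribed within minutes of a stimulus and also of tissue dissociation, were higher in combination. All 16 lay above 0 (median 0.40), with 13 intervals above 0 and 1 gene, Klf2, at 2-fold. Klf2, a factor that restrains inflammatory activation of monocytes, was at 128 CPM in BTYNB and 338 in combination (1.40, 1.11 to 1.70), and after thinning 37.9% (29.8 to 46.4) and 59.1% (49.6 to 68.2) of the cells had a UMI of it, against 11.5% and 12.5% of keratin-rich cells. Jun, an AP-1 subunit, was at 785 and 1420 CPM (0.85, 0.73 to 0.98), Fos, its partner, at 2787 and 4048 (0.54, 0.47 to 0.61), and Zfp36, which destabilises cytokine mRNAs, at 3669 and 5700 (0.64, 0.58 to 0.70). Nr4a1 (301 and 313 CPM) and Atf3 (818 and 860) had intervals that included 0. The list leaned the same way in Ly6c2 monocytes (14 of 16 above 0, median 0.57), C1q macrophages (13 of 16, 0.38) and the dendritic gate (15 of 16, 0.39), and the other way in keratin-rich cells (1 of 16, -0.14). Treatment and the handling of each pool cannot be told apart. Feedback genes of NF-kB had 9 of 12 above 0 (median 0.22), among them Nfkbid (192 and 314 CPM, 0.71, 0.45 to 0.98), Nfkbiz (424 and 607) and Nfkbia (667 and 936 CPM), inhibitors or modulators of the factor.

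Cell cycle genes were the list with the highest median. All 13 tested were above 0 (median 0.70), with 12 intervals above 0 and Mki67, Ccna2 and Rrm2 at 2-fold. Mki67, which marks cycling cells, was at 118 CPM in BTYNB and 280 in combination (1.24, 0.93 to 1.56), Top2a at 186 and 271 (0.54, 0.27 to 0.82), Ccna2, a cyclin of S and G2 phase, at 42.3 and 101 (1.24, 0.73 to 1.80), and Pcna, the replication clamp, at 264 and 402 (0.60, 0.38 to 0.83). After thinning to 5000 UMIs, 19.3% (13.1 to 26.8) of BTYNB and 38.3% (29.4 to 47.8) of combination cells had a Mki67 UMI. Keratin-rich cells at the same thinned depth had 23.1% and 28.3%, from unthinned medians of 19697 and 12984 UMIs, but tumour cells cycle too, and their share is no measure of free RNA for this gene. Without thinning the shares were 22.9% and 40.9%. Of the Lyz2-low cells 16.7% in BTYNB and 41.3% in combination had Mki67, and of the Lyz2-high cells 18.8% and 34.4%. The list was also above 0 in the dendritic gate (12 of 12, median 0.48), while in Ly6c2 monocytes 4 of 13 genes were above 0 (-0.21) and in C1q macrophages 10 of 16 (0.08). Among cells of at least 8000 UMIs the median was 0.24.

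Glycolysis and hypoxia genes were lower in combination. None of the 15 tested was above 0 (median -0.43), 10 intervals were below 0, and Vegfa passed 2-fold. Vegfa, the vascular growth factor induced by hypoxia, was at 59.9 CPM in BTYNB and 23.8 in combination (-1.30, -2.13 to -0.60). The enolase gene Eno1 was at 354 and 210 CPM (-0.76, -1.02 to -0.50), the phosphoglycerate enzymes Pgk1 at 591 and 415 (-0.51, -0.70 to -0.32) and Pgam1 at 733 and 518 (-0.50, -0.67 to -0.33), and the aldolase Aldoa at 1166 and 882 (-0.40, -0.53 to -0.27). Gapdh differed least among the abundant ones (1146 and 1016 CPM, -0.17). The same list had 13 of 15 genes below 0 in Ly6c2 monocytes (median -0.64), 12 of 16 in C1q macrophages (-0.36), 11 of 12 in the dendritic gate (-0.34) and 13 of 16 in keratin-rich cells (-0.17), so the direction was shared across cells of the 2 libraries.

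Genes of the interferon-gamma response had 7 of 11 above 0 and a median of 0.42, with 5 intervals above 0 and none at 2-fold. The guanylate-binding proteins, interferon-induced GTPases, carried this: Gbp4 was at 45.8 and 83.3 CPM (0.85, 0.32 to 1.41), Gbp2 at 278 and 379 (0.45, 0.22 to 0.68) and Gbp3 at 103 and 144 (0.48, 0.10 to 0.86), and the immunity-related GTPase Irgm1 at 71.4 and 108 (0.59, 0.15 to 1.05). Irf1 was at 242 and 230 CPM. The median was -0.01 within Lyz2-low cells and 0.23 within Lyz2-high cells, and 14 of 14 genes of the list were above 0 in keratin-rich cells (median 0.49). Type I interferon-stimulated genes had 6 of 10 above 0 and a median of 0.06.

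The cytokine genes went in both directions. Il1b was at 656 CPM in BTYNB and 425 in combination (-0.62, -0.81 to -0.44), and it was also lower in combination in Ly6c2 monocytes (306 and 68.7 CPM), C1q macrophages (171 and 74.5) and the dendritic gate (459 and 277), with the neutrophil markers of the monocyte gate as given above. Tnf was at 90.8 and 148 CPM (0.70, 0.31 to 1.09). Il1rn, the interleukin-1 receptor antagonist, was at 16.7 and 39.3 CPM (1.18), but keratin-rich cells held 158 and 141 CPM of it. Of 11 chemokine genes 3 were above 0 (median -0.17). Their intervals do not cover uneven spread over cells, with Fano factors of 8.29 and 7.43 for Ccl2 and 10.2 and 8.71 for Ccl7. Ccl2, the ligand of Ccr2, was at 631 and 819 CPM (0.38, 0.22 to 0.53) and Ccl6 at 1849 and 2148 (0.22, 0.12 to 0.31), whereas Ccl7, another Ccr2 ligand, was at 326 and 240 (-0.44, -0.69 to -0.19), Cxcl2 at 1447 and 1286 (-0.17, -0.28 to -0.06) and Cxcl16 at 66.1 and 34.5 (-0.92, -1.61 to -0.30).

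Costimulatory ligands leaned lower in combination, with 7 of 11 below 0 and a median of -0.31. Cd86 was at 276 and 193 CPM (-0.51, -0.80 to -0.24), Cd80 at 125 and 90.5 (-0.46, -0.89 to -0.06) and Pvr, a ligand of the T cell receptors Cd226 and Tigit, at 63.5 and 33.3 (-0.91, -1.61 to -0.28). Cd48 was higher, at 157 and 218 CPM (0.47, 0.17 to 0.78). Cd274, which encodes PD-L1, the ligand of the blocked receptor, was at 132 and 112 CPM with an interval that included 0 (-0.24, -0.63 to 0.14). Within Lyz2-low cells 3 of 10 genes were above 0 (median -0.17), and within Lyz2-high cells 4 of 6 (0.21).

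Among the C-type lectins, 6 of 11 were above 0 (median 0.16), but within Lyz2-low cells 5 of 10 were (-0.094) and within Lyz2-high cells 2 of 10 (-0.18). Cd209a, a lectin of type 2 dendritic cells and monocyte-derived cells, was at 619 CPM in BTYNB and 1046 in combination (0.76, 0.61 to 0.90), and 62.1% (53.6 to 70.2) and 69.6% (60.3 to 77.8) of thinned cells had a UMI of it, against 0.2% and 0.267% of keratin-rich cells. The mannose receptor Mrc1 was at 480 and 573 CPM (0.26, 0.08 to 0.44), the beta-glucan receptor Clec7a at 945 and 723 (-0.39, -0.53 to -0.24) and Clec10a at 393 and 285 (-0.47, -0.70 to -0.24). Clec10a and Mgl2 are close copies, and the counting could split their reads. Mgl2 itself was at 1959 and 2016 CPM and Ccr2 at 1242 and 1330, both of which the rule used. The alternative activation genes had 5 of 7 below 0 (median -0.38), with the interleukin-4 receptor Il4ra at 89.9 and 46.4 CPM (-0.94, -1.52 to -0.41) and Fn1 at 401 and 255 (-0.65, -0.90 to -0.42).

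Lipid genes had 4 of 6 above 0 (median 0.39) and held the most divergent pair. Cd36, a fatty acid and scavenger receptor, was at 22.04 CPM in BTYNB and 94.1 in combination (2.04, 1.43 to 2.80), from 13 and 24 cells. After thinning, 8.57% (4.51 to 14.5) and 17.4% (11.0 to 25.6) of the cells had a UMI, against 0.533% and 0.667% of keratin-rich cells. C1q macrophages had 244 and 397 CPM. Fabp5, a fatty acid-binding protein, was at 67.0 and 26.2 CPM (-1.32, -2.11 to -0.65). Lpl (182 and 285 CPM, 0.64, 0.37 to 0.92) and the lysosomal lipase Lipa (196 and 286, 0.54, 0.28 to 0.82) were higher. Lpl was uneven between cells (Fano factors 18.8 in BTYNB and 9.11 in combination), which its interval does not cover. Within Lyz2-high cells 4 of 5 genes of the list were above 0 (0.30), and within Lyz2-low cells 2 were tested, 1 on each side (-0.55).

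Glucocorticoid-induced genes had 6 of 8 below 0 (median -0.37), with 3 intervals below 0 and 2 above. The most abundant of them, Dusp1, was higher in combination, at 1313 and 1963 CPM (0.58, 0.48 to 0.68). Fkbp5 (-0.007), Tsc22d3 (-0.25) and Cebpd (-0.48) had intervals that included 0. Per1, a clock gene that glucocorticoids induce, was at 128 and 53.6 CPM (-1.24, -1.77 to -0.76), and the metallothioneins Mt1 at 1140 and 623 (-0.87, -1.02 to -0.72) and Mt2 at 332 and 185 (-0.85, -1.13 to -0.58), while the kinase Sgk1 was at 41.4 and 73.8 (0.82, 0.26 to 1.41). Mt1 was lower in combination in the monocytes (822 and 292 CPM), C1q macrophages (1006 and 422) and dendritic gate (661 and 397) too. Of 13 myeloid transcription factors 9 were above 0 (median 0.13): Cebpa, a granulocyte and monocyte factor, was at 45.0 and 89.3 CPM (0.97, 0.46 to 1.53), Irf8 at 59.9 and 86.9 (0.53, 0.04 to 1.03) and Klf4 at 889 and 1217 (0.45, 0.33 to 0.58), and Runx3 was lower, at 185 and 102 (-0.85, -1.23 to -0.49). Without cells that had a Cd3, Cd79 or keratin UMI, that median was -0.082.

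Adhesion genes had 7 of 11 below 0 (median -0.14). Thbs1, the matrix protein thrombospondin, was at 130 and 47.6 CPM (-1.44, -2.00 to -0.94), while Cd226 was at 61.7 and 98.8 (0.67, 0.20 to 1.16). Itgax was at 240 and 167 CPM (-0.52, -0.83 to -0.23). Within Lyz2-low cells Itgax was at 328 and 261 CPM, and within Lyz2-high cells at 102 and 93.8. Fc receptors divided as well, with Fcgr1 at 82.0 and 50.0 CPM (-0.70, -1.28 to -0.17) and their signalling chain Fcer1g at 2093 and 2102 (0.01, -0.08 to 0.10). Of the 10 tested heat shock genes 8 were above 0 (median 0.07), led by Hspa1a (62.6 and 131 CPM, 1.05, 0.62 to 1.52), a near copy of Hspa1b. The 2 complement genes tested had a median of -0.23. The 4 tested monocyte markers were all lower in combination, with Plac8 at 1027 and 617 CPM (-0.73, -0.89 to -0.59) and F13a1 at 39.7 and 7.14 (-2.32, -3.99 to -1.24). In BTYNB, 135 of 148 Thbs1 UMIs and 36 of 45 F13a1 UMIs came from Lyz2-high cells. Lyz2-low cells of BTYNB and combination had 4 and 2 Thbs1 UMIs and 1 and 1 F13a1 UMIs, too few to compare.

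Among all genes, the 12 that differed most upward and had at least 100 UMIs were led by Lyz1, at 30 UMIs in BTYNB and 178 in combination (2.96, 2.44 to 3.61). They came from 5 and 12 cells, and the highest cells held 25 and 67 of them. Cd36 and Klf2 followed, then Cald1, an actin-binding protein at 36.1 and 91.7 CPM (1.32) that keratin-rich cells held at 1524 and 1596 CPM, and the cycle genes Pclaf (131 and 312 CPM, 1.24, 0.95 to 1.55), Ccna2, Mki67 and Cenpe. Fcrls was at 45.8 and 108 CPM (1.22, 0.73 to 1.76), Frmd4b at 49.4 and 112, Timp2, a metalloproteinase inhibitor, at 36.1 and 82.1 (1073 and 935 CPM in keratin-rich cells) and Mctp1 at 52.9 and 117.

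On the lower side, 10 genes had at least 100 UMIs. Saa3, an acute-phase apolipoprotein, had 95 UMIs in BTYNB and 5 in combination (-3.61, -5.47 to -2.54), but 1 BTYNB cell held 86 of them, and without the highest cells the difference was -0.97. Ifitm1, an interferon-induced membrane protein, was at 645 and 160 CPM (-2.01, -2.29 to -1.75), from 91 of 140 and 40 of 115 cells, and was lower in combination in each of the 3 neighbouring gates. AA467197, a small mitochondrial respiratory chain-associated gene induced by inflammation, was at 153 and 40.5 CPM (-1.89, -2.49 to -1.38). The vitamin D receptor Vdr was at 133 and 54.8 CPM (-1.27, -1.79 to -0.80) and the interleukin-1 decoy receptor Il1r2 at 639 and 289 (-1.14, -1.36 to -0.93). Csf2rb2, a beta chain of the interleukin-3 receptor, was at 103 and 50.0 CPM (-1.03, -1.59 to -0.52). Thbs1, Per1 and I830077J02Rik (67.9 and 33.3 CPM) were also among them.

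**Figure D5:**
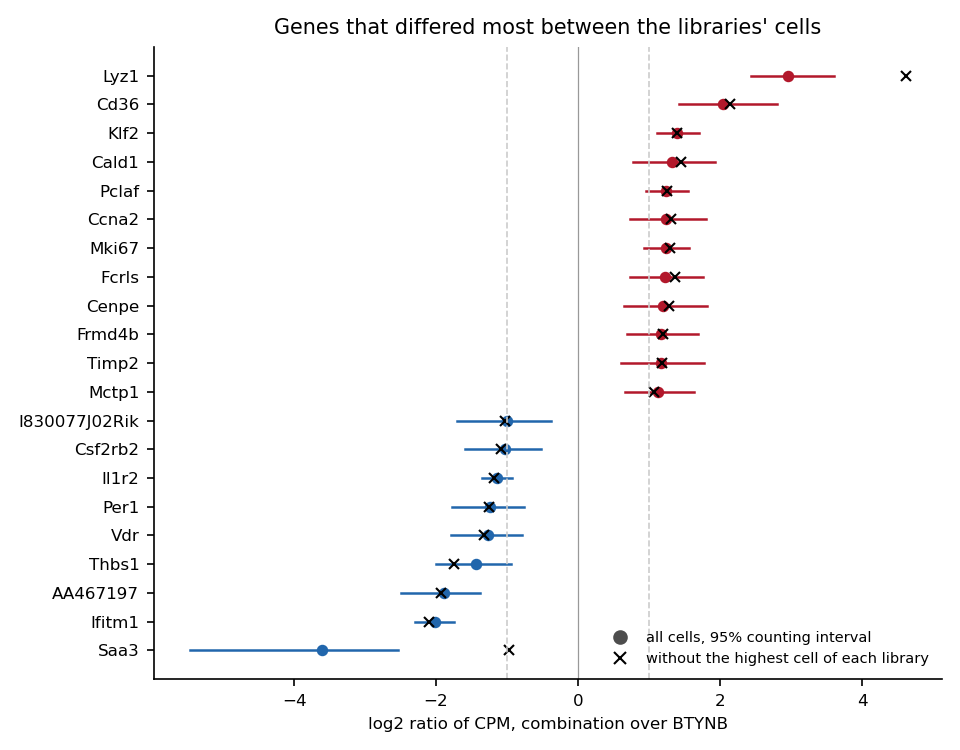
Log2 ratio of CPM, combination over BTYNB, for the 12 genes highest and 9 of the 10 lowest in combination among genes with at least 100 UMIs. Points carry 95% counting intervals, crosses show the value without the highest cell of each library, and dashed lines mark 2-fold. The cross of Saa3 lies at -0.97, away from its point at -3.61, and that of Lyz1 at 4.62, while those of Ifitm1, Il1r2, Klf2 and Cd36 lie near their points.

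The control library held 11 cells of the same rule above the floor, with 63511 UMIs, so its levels are wide. The abundant class II chains were lower than in BTYNB and combination, with H2-Aa at 5747 CPM (5172 to 6368) and H2-Eb1 at 5590 (5023 to 6202). H2-DMa, at 850 CPM (639 to 1109), and H2-DMb2, at 803 (598 to 1056), were not lower, and Cd74, at 10943 CPM (10144 to 11788), was close to combination. Fos was at 4267 CPM (3774 to 4806) and Jun at 1212 (957 to 1515), which is nearer to combination than to BTYNB. Mki67 was at 346 CPM (217 to 524), Klf2 at 283 (168 to 448) and Cd36 at 157 (75.5 to 290), all with intervals above the BTYNB value. Eno1 and Il1b, with 26 UMIs each, were both at 409 CPM (267 to 600), and the first of these intervals held the BTYNB value of 354 CPM while the second held the combination value of 425 CPM. Cd209a was at 598 CPM (423 to 821). The anti-PD-1 library had no cell above the floor, so an effect of the blocking antibody without BTYNB was not analysed for these cells.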

How the data were processed

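Ascites cells were captured on the BD Rhapsody platform, 1 pooled library per treatment. The authors made the counts with the BD Rhapsody pipeline and deposited 1 matrix of raw UMI counts per gene and cell for each library. The submitters' processing notes name the build GRCm39. The control matrix held 7858 cells with at least 4438 UMIs each, the BTYNB matrix 19247 with at least 869, the anti-PD-1 matrix 12163 with at least 3533, and the combination matrix 7074 with at least 5115.

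The matrices were joined over 29835 genes with Python 3.11.15, NumPy 2.4.6, SciPy 1.17.1, pandas 2.3.3, Scanpy 1.11.5 and matplotlib 3.10.9. Cells needed at least 200 genes and at most 33% mitochondrial UMIs (genes with the prefix mt-). Selected cells had at least 1 Mgl2, 1 Ccr2 and 10 H2-Ab1 UMIs, no Flt3 or Ly6c2, at most 2 Retnla, 4 C1q, 1 Cd3, 2 Cd79 and 2 keratin UMIs. Counts were summed per library and scaled to CPM. Genes needed 50 UMIs over both sides, and genes on which any gate was set were left out of comparisons between gates. Each gate's comparison was made within a library and called only where both libraries gave it. Ratios carry the exact interval of the corresponding binomial share. The limit for a count of 0 is 3 counts. The interval method was tested on simulated Poisson counts, which is the model it assumes, so that test does not cover the spread between cells.

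Doublets were scored with scrublet. Its own threshold marked 2.61% of BTYNB cells and 0.0128 to 0.0710% of the other libraries' cells, too few there to have worked, so doublets were kept and removal of the 5% highest scores was an alternative, which removes 3 and 1 of the selected cells. The study itself used scDblFinder.

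Named were the genes of the lists, the 20 with the highest CPM in both libraries, up to 12 with the largest difference in each direction with at least 100 UMIs, 8 per neighbouring gate and direction, and the 15 with the highest Fano factor in both libraries. A few genes that the rule names are not reported here. The selected cells, lists and tests were chosen with earlier results of these data known, and the Lyz2 classes and the Xcr1 and Clec9a cells after their values were seen. Alternatives were other floors, gates, scalings, pseudocounts, filters, thinning depths and cell classes.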

Additional observations from a re-analysis of the deposited data

How the results depend on the processing

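Over 411 alternative values, 379 stayed within the range allowed for them, and 32 moved beyond it. The range was the counting interval of a share or 1.5 times a count. For a list median it was a range of the ranked ratios of the list's own genes, which can span 0. List medians made up 321 of the 411 values, and 318 of them stayed, so most of the 379 rest on that range. Counts and shares have no sign to change. Of 19 list medians under 321 alternative values, 22 values in 10 lists lay on the other side of 0, each list with genes on both sides of 0 as well. No paired analysis was possible because each treatment was 1 library, and leaving out a replicate was not possible for the same reason. The depth limits genes under about 50 UMIs, and the all-gene median moved to at most 0.06 under any setting.

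The share of the cells in BTYNB (2.49%) was 1.07% without a floor on UMIs, 1.72% among cells of at least 8000 UMIs, 2.96% with the limits applied after thinning to 5000 UMIs, 2.07% with no Retnla and at most 1 C1q UMI, and 2.03% with no Cd3, Cd79 or keratin UMI. In combination (1.63%) it was 0.608% at 8000 UMIs, 1.33% with the stricter Retnla and C1q limits and 1.004% with no Cd3, Cd79 or keratin UMI. The 68 genes higher in combination were 43 at 8000 UMIs, 30 without Cd3, Cd79 or keratin UMIs, 44 in Lyz2-low cells, 29 in Lyz2-high cells, 44 with a pseudocount of 5 CPM, 234 with a minimum of 20 UMIs and 396 with no minimum. The 52 lower genes were 31 in Lyz2-high cells, 26 with the pseudocount of 5 CPM, 122 with 20 UMIs and 165 with no minimum. Fewer cells or a stricter ratio lower these counts by construction, and lower minima test more genes.

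The cell cycle median (0.70) was 0.24 at 8000 UMIs and 0.54 without Cd3, Cd79 or keratin UMIs, and that of the transcription factors (0.13) was -0.082 in the latter. The cause was not tested. The chemokine median, -0.17, was 0.05 without the cells with Xcr1 or Clec9a UMIs. Within the Lyz2 classes the medians on the other side of 0 were those of costimulation (-0.31, 0.21 in Lyz2-high cells), class II processing (-0.12, 0.023 high), heat shock (0.07, -0.073 high), C-type lectins (0.16, -0.094 low and -0.18 high), and, in Lyz2-low cells, chemokines (0.081), cytokines (-0.20, 0.091), type I interferon (0.06, -0.18), interferon-gamma (0.42, -0.015) and transcription factors (-0.032). At 8000 UMIs so were class II processing (0.16), class I (0.09, -0.024) and heat shock (-0.021). Without a floor chemokines were at 0.013 and type I interferon genes at -0.056, with lower UMI minima cytokines at 0.062 and lectins at -0.10, and lectins were at -0.081 without Cd3, Cd79 or keratin UMIs. With a minimum of 20 UMIs, 75 genes were lower than in Ly6c2 monocytes (30) and 49 lower than in Cd209a dendritic cells (25). Thinned to 2000 UMIs, the shares with a UMI in BTYNB and combination were 10.7% and 27.0% for Mki67, 44.3% and 60% for Cd209a and 19.3% and 38.3% for Klf2, and 3.57% for Cd36 in BTYNB. Without thinning, Klf2 was at 48.6% in BTYNB. The alternatives without Xcr1 or Clec9a cells and within the Lyz2 classes were chosen after seeing the data.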

Other observations

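The BTYNB library held 65 further cells that met the limits but had fewer than 5115 UMIs, with 234978 UMIs in all. Against the 140 cells above that number, 52 of 4010 genes were at least 2-fold higher and 93 lower. Genes of the cell cycle and of chemokines were among those lower in the small cells, with Top2a at 186 CPM above and 59.6 CPM under the floor (-1.63, -2.54 to -0.86), Stmn1 at 189 and 72.3 CPM (-1.37, -2.19 to -0.67), Ccl7 at 326 and 93.6 CPM (-1.79, -2.49 to -1.18) and Ccl3 at 212 and 68.1 CPM (-1.62, -2.47 to -0.91). The thioredoxin-interacting protein Txnip was higher in them, at 64.4 and 153 CPM (1.24, 0.63 to 1.85), as were the chromatin gene Ash1l, at 56.4 and 174 CPM, and the transglutaminase Tgm2, at 67.0 and 157 CPM. These genes were chosen after their values were seen, and the combination library holds no cells of this size for comparison.

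The selected cells with UMIs of type 1 dendritic receptors were few. Xcr1 had 4 UMIs in 2 BTYNB cells and 39 UMIs in 5 combination cells, 19 of them in 1 cell, and Clec9a had 8 UMIs in 6 cells and 26 UMIs in 11 cells. Without the cells with either, Cd36 differed by 1.83 between combination and BTYNB, Klf2 by 1.34, Mki67 by 1.27, Cd209a by 0.71, Cd74 by -0.42 and Il1b by -0.74.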
